A study of Mus musculus with 4 samples.

Results

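Nod1, Nod2, Ripk2, Nlrp3, Nlrx1, Pycard, Casp1, Casp4 and Gsdmd, the NOD receptors with their kinase and the core parts of the inflammasome, were followed across 4 RNA-sequencing libraries of mouse mammary cells. These 9 genes were picked by symbol, not by a rule on their measured values, among the 54446 genes of the deposited table. Earlier results of these data were known when they were chosen. The cells came from the mammary gland of wild type C57BL/6 mice and had been separated by flow cytometry into basal (CD29 high, CD24 positive) and luminal (CD29 low, CD24 positive) populations after removal of cells positive for CD31, CD45 or TER119. They were grown in 3D in Matrigel with EGF, and the medium held either DMSO, the control, or 100 μM baicalin, a flavonoid of Scutellaria roots. Each of the 4 conditions is 1 library, the basal and luminal cells with DMSO and the same with baicalin. Per the methods, glands were taken from young adult females, but the number of animals behind each library is not given in the sources used here.

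Nod1 and Nod2 encode cytosolic receptors that sense fragments of bacterial peptidoglycan and recruit the kinase encoded by Ripk2, which leads to NF-κB and MAP kinase signalling. Nlrp3 encodes a sensor that, through the adaptor ASC encoded by Pycard, assembles the inflammasome and activates the protease encoded by Casp1. That protease matures the cytokines encoded by Il1b and Il18 and cleaves gasdermin D, the product of Gsdmd, which then forms pores in the plasma membrane. Casp4 encodes the mouse protease also called caspase-11, which senses cytosolic lipopolysaccharide and cleaves gasdermin D as well. Nlrx1 encodes a related protein of mitochondria that is described mostly as a restraint on innate signalling.

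All 9 are protein-coding genes, placed here on GRCm38. Nod1 (ENSMUSG00000038058) lies on the minus strand at chr6:54923949-54972612 and Nod2 (ENSMUSG00000055994) on the plus strand at chr8:88647315-88688474. Ripk2 (ENSMUSG00000041135) is at chr4:16122733-16163647, Nlrx1 (ENSMUSG00000032109) at chr9:44252717-44268599 and Pycard (ENSMUSG00000030793) at chr7:127989708-127993867, all on the minus strand. Nlrp3 (ENSMUSG00000032691) at chr11:59541568-59566956 and Gsdmd (ENSMUSG00000022575) at chr15:75862327-75867408 lie on the plus strand. Casp1 (ENSMUSG00000025888) at chr9:5298517-5307265 and Casp4 (ENSMUSG00000033538) at chr9:5308828-5336783 are neighbours on the plus strand.

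Levels are given as FPKM, a count of fragments divided by exon length and by library depth, so a comparison between genes depends on the exon length used. The fragments behind each value were recovered from the deposited numbers. The library depth that the FPKM had been divided by was recovered as between 19356110 and 20649005 fragments. Fragments summed over genes were somewhat more than this depth in each library, from 1.98e+07 to 2.12e+07. Intervals are 95% intervals from these fragments and cover counting error only. With 1 library per condition the spread between cultures is not known, no test between conditions was run, and no p-value is given. Changes are log2((first FPKM + 1)/(second FPKM + 1)), a scale that understates changes of genes near 1 FPKM, and a change is called past the threshold when its size is above 1. All 9 genes were above 0 FPKM in all 4 libraries and are among the 17787 genes for which this holds. In bulk RNA, fewer cells that express a gene and less RNA per cell cannot be told apart.

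The labels of the libraries went against most of the marker genes read. Of 10 basal markers such as Krt5 and Trp63, 10 were higher in the luminal-labelled library than in the basal-labelled one with DMSO, and 10 with baicalin. Their summed level was 5365 against 1786 FPKM with DMSO. Of 10 luminal keratin and epithelial markers such as Krt8, 10 were lower in the luminal-labelled library with DMSO and 9 with baicalin, with sums of 1466 against 4560 FPKM with DMSO. The hormone receptor genes Esr1 and Pgr, which mark a subset of luminal cells, were low in all 4 libraries. Esr1 had 0.992 and 0.982 FPKM in the basal-labelled DMSO and baicalin libraries and 1.44 and 0.723 FPKM in the luminal-labelled ones. Pgr, at 1.08 and 0.911 FPKM and then 4.81 and 2.09 FPKM, was higher in the luminal-labelled libraries, the way the labels say. The study's own RT-qPCR of such genes, from which it took the sorted cells to be basal, was not analysed here. Basal and luminal are used below only as the labels of the libraries. The baicalin library labelled basal also held less of the basal markers than its DMSO control, 501 against 1786 FPKM in sum. In the luminal-labelled pair the sum of the basal markers was 5365 FPKM with DMSO and 7238 FPKM with baicalin.

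Immune cells carry most inflammasome activity in tissues, so 20 marker genes of these cells were read. Between 15 and 19 of the 20 were below 1 FPKM in a given library. Ptprc encodes the CD45 antigen used to discard immune cells. It had 5 fragments in the basal-labelled DMSO library and 0 in its baicalin counterpart. In the luminal-labelled libraries it had 1 with DMSO and 2 with baicalin. Of 20 immune markers, between 5 and 9 were at 0 in a given library, and Cd3g, Ms4a1 and Nkg7 were among those at 0 in all 4. The summed level of the 20 markers ran from 7.09 to 56.4 FPKM. Most of it came from Cd68, Lyz2, S100a8 and S100a9, which epithelial cells can also express, and without these the sums were 1.88 and 1.45 FPKM in the basal-labelled DMSO and baicalin libraries and 0.828 and 1.95 FPKM in the luminal-labelled ones. Of the 8 immune markers above 0 in every library, 6 were lower with baicalin in the basal-labelled pair. In the luminal-labelled pair 7 of the 8 were higher, the median log2 change being 0.36. The sum over all 20 went from 7.09 to 27.3 FPKM there, the same direction as most of the 9 members. Of all genes, 50.9% were higher in the basal-labelled pair and 45.6% in the luminal-labelled pair. Some of the 8 rested on few fragments, in the luminal-labelled DMSO and baicalin libraries 4 and 6 for Csf1r and 7 and 11 for Mpeg1. The 4 genes left out of the lower sums were set apart after their values were seen. The part of immune cells in the results below was not tested. Of 12 fibroblast and endothelial markers, 6 were higher and 6 lower with baicalin in the basal-labelled libraries. In the luminal-labelled ones 11 were higher, against the 45.6% of all genes, and 1 was lower. The sum stayed between 3.92 and 12.3 FPKM across all 4 libraries.

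By FPKM, Casp1 and Ripk2 ranked highest of the 9 genes in every library, and Nlrp3 was nearly absent. In the basal-labelled DMSO library the order began with Ripk2 at 20.9 FPKM and Casp1 at 12.2 FPKM, followed by a group between 1.06 and 2.0 FPKM in which no neighbour in the order was separated from the next by its counting interval (Nlrx1, Gsdmd, Casp4, Nod2, Pycard and Nod1). In the luminal-labelled DMSO library the order began with Casp1 at 27.2 FPKM, Ripk2 at 6.88 FPKM and Pycard at 4.95 FPKM, each clear of the next. With baicalin, Casp1 reached 46.2 FPKM in the luminal-labelled library. That was more than 94.8% of the 17787 genes above 0 in all 4 libraries. In the basal-labelled baicalin library the intervals of Ripk2 (12.01 FPKM) and Casp1 (11.4 FPKM) overlapped. The FPKM use all annotated exon bases of a gene, which for Casp4 are 3710 against 1435 in its longest principal transcript and for Nlrx1 5750 against 3669. For Pycard they are 3800, as in its principal transcript, while its shortest coding transcript has 493. Pycard had 364 fragments and Ripk2 375 in the luminal-labelled DMSO library. The order of the 9 genes by level and the size of ratios between them thus depend on the lengths used.

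**Figure D1:**
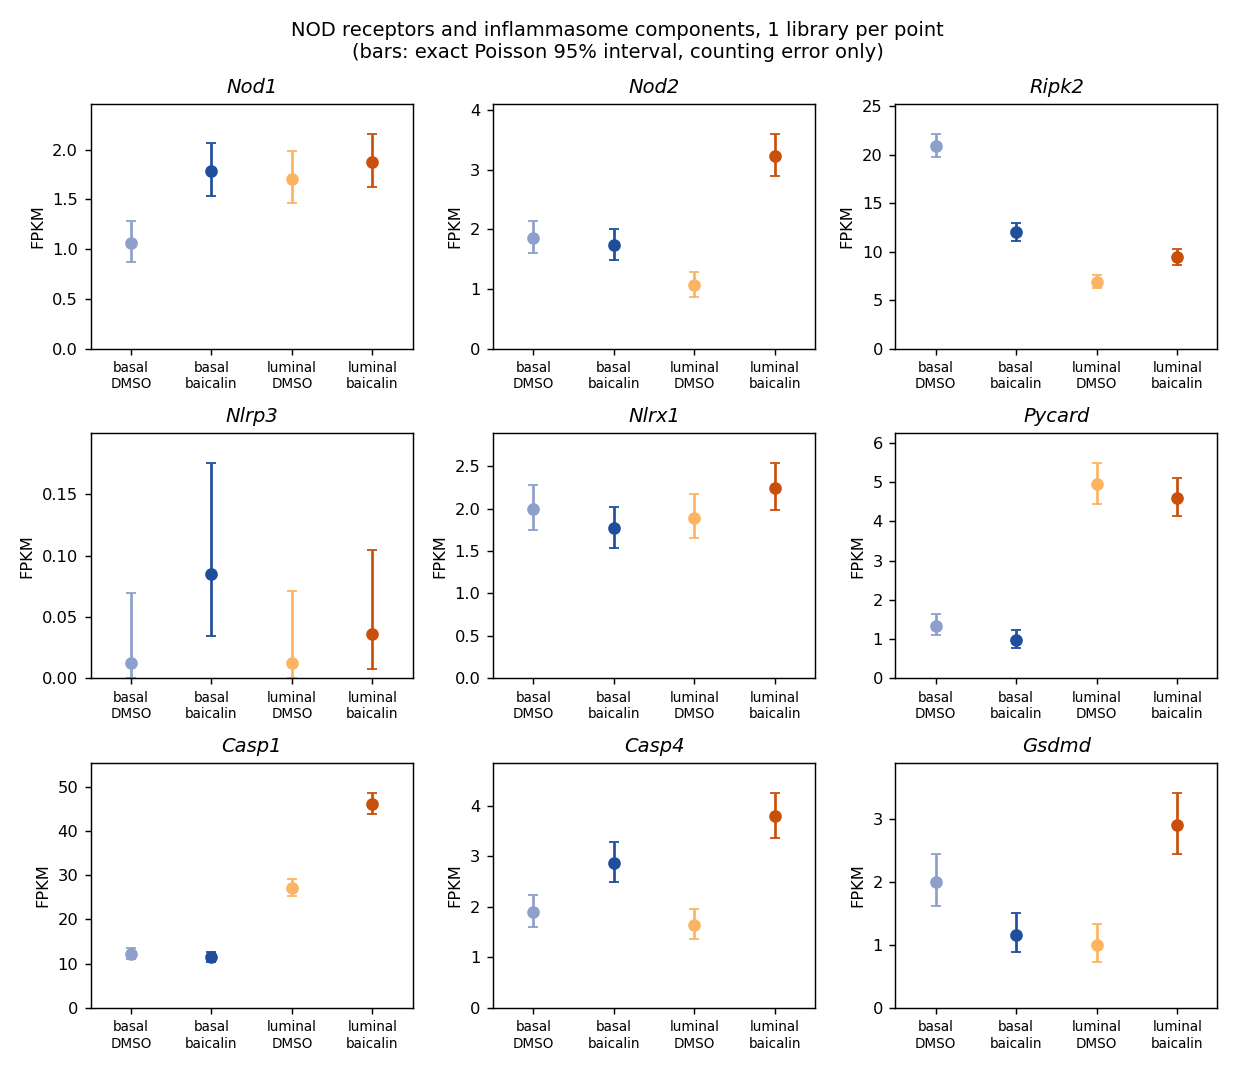
FPKM (vertical axes, each starting at 0, with its own scale) of the 9 genes in the 4 libraries, 1 point per library, with exact Poisson 95% intervals that cover counting error only. Casp1 and Pycard are higher in both luminal-labelled libraries, Ripk2 peaks at 20.9 FPKM in the basal-labelled DMSO library, and Nod2, Casp4 and Gsdmd peak in the luminal-labelled baicalin library.

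The first comparison set baicalin against DMSO in the basal-labelled cells. No member passed the threshold in either direction. Across all genes tested, 2.15% were higher past the threshold and 3.33% lower. The members were nevertheless not alike. Ripk2 and Gsdmd were lower with baicalin, Nod1 and Casp4 were higher, Pycard was lower by a smaller margin, and for Nod2, Nlrx1, Casp1 and Nlrp3 no difference was detectable beyond counting error. By the counting interval of the plain FPKM ratio, 2 of 9 were higher (28.1% of all genes) and 3 of 9 lower (26.3% of all genes), close to the shares among all genes. The median log2 change of the 9 was -0.09, against 0.01 for all genes.

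Ripk2, the kinase downstream of both NOD receptors, had 20.9 FPKM with DMSO and 12.01 FPKM with baicalin in the basal-labelled libraries, from 1170 and 686 fragments. The ratio was 0.574 (0.522 to 0.631), and the log2 change of -0.75 was lower than that of all but 5.27% of the genes. Gsdmd, the pore-forming substrate, had 1.99 FPKM in the control and 1.16 FPKM under baicalin, a ratio of 0.583 (0.411 to 0.820). Pycard, the adaptor, had 1.34 and 0.973 FPKM, a ratio of 0.727 (0.532 to 0.990) whose upper bound lay just under 1.

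On the receptor side the direction was the opposite for Nod1, at 1.06 FPKM in the control and 1.79 FPKM under baicalin, a ratio of 1.68 (1.32 to 2.16). Casp4 had 1.90 and 2.87 FPKM, a ratio of 1.51 (1.22 to 1.88). These were the members that were higher. Nod2 (1.86 and 1.73 FPKM), Nlrx1 (2.0 and 1.77 FPKM) and Casp1 (12.2 and 11.4 FPKM) had ratios of 0.931 (0.753 to 1.15), 0.884 (0.729 to 1.07) and 0.933 (0.803 to 1.08), so a difference from DMSO was not detectable at this depth. Nlrp3 rested on 1 fragment in the control and 7 under baicalin, so that the ratio was 6.86 with an interval from 0.880 to 309. Its counts were too few to give a direction.

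In the same comparison of the luminal-labelled cells, 8 of the 9 genes had a higher FPKM with baicalin, against 45.6% of all genes, with Nlrp3 among the 8 on 1 and 3 fragments. Nod2 alone passed the threshold upwards (1 of 9, against 2.37% of all genes) and no member passed it downwards (1.59% of all genes). By the counting interval 5 of 9 were higher, Nod2, Gsdmd, Casp4, Casp1 and Ripk2, against 22.9% of all genes, and 0 of 9 were lower, against 28.7%. The median log2 change of the 9 was 0.40, against -0.02 for all genes. The count past the threshold rested on the 1 FPKM added to each value. With 0.1 FPKM added it was 3 of 9, Nod2, Casp4 and Gsdmd, and 11% of all genes then passed in either direction.

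Nod2 had 1.06 FPKM with DMSO and 3.24 FPKM with baicalin in the luminal-labelled libraries, from 103 and 335 fragments. The ratio was 3.05 (2.44 to 3.84) and the log2 change of 1.04 was above that of 97.8% of the genes. Gsdmd had 1.0 FPKM in the control and 2.89 FPKM under baicalin, a ratio of 2.89 (2.06 to 4.13), with a log2 change of 0.96. Casp4 had 1.64 and 3.80 FPKM, a ratio of 2.31 (1.86 to 2.89), with a log2 change of 0.86. These 3 genes sense peptidoglycan fragments, form the membrane pore and cut that pore protein in response to lipopolysaccharide, and all were expressed near 1 to 2 FPKM in the control.

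Casp1, already abundant, had 27.2 FPKM with DMSO and 46.2 FPKM with baicalin, from 787 and 1428 fragments. The ratio was 1.70 (1.56 to 1.86). Ripk2 had 6.88 and 9.41 FPKM, a ratio of 1.37 (1.20 to 1.56). The adaptor Pycard had 4.95 and 4.60 FPKM, a ratio of 0.930 (0.801 to 1.08), so the ratio of Casp1 to Pycard FPKM went from 5.49 to 10.04. Nod1 (1.71 and 1.88 FPKM) and Nlrx1 (1.90 and 2.25 FPKM) had ratios of 1.10 (0.890 to 1.36) and 1.19 (0.987 to 1.43), within the counting error. Nlrp3 had 1 and 3 fragments and no fold is given for it. The ratio of Nod2 to Nod1 FPKM was 0.621 with DMSO and 1.72 with baicalin.

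**Figure D2:**
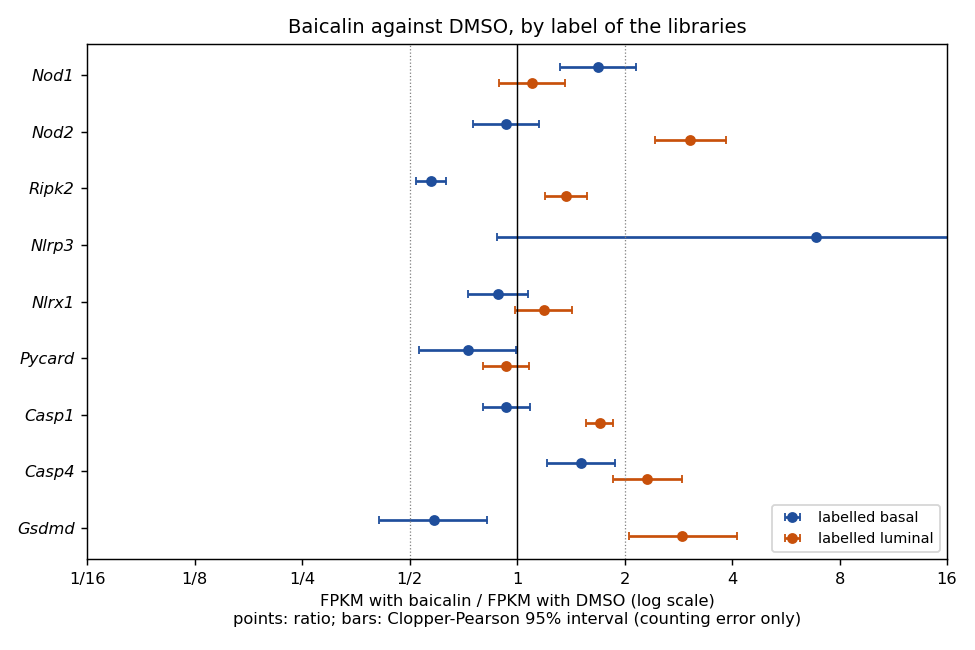
Ratio of FPKM with baicalin to FPKM with DMSO (log axis) for each gene in the libraries labelled basal and luminal, with Clopper-Pearson 95% intervals that cover counting error only and dotted lines at 2-fold either way. Ripk2 and Gsdmd lie below 1 in the basal-labelled pair and above 1 in the luminal-labelled pair. Nlrp3 is drawn for the basal-labelled pair only, and its interval runs on to 309.

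The responses to baicalin were also set against each other between the labels, as the ratio in the luminal-labelled pair divided by the ratio in the basal-labelled pair, with an exact conditional interval from the 4 fragment counts. This quotient was 4.96 (3.02 to 8.16) for Gsdmd, 3.27 (2.39 to 4.48) for Nod2, 2.38 (2.02 to 2.81) for Ripk2, 1.82 (1.53 to 2.17) for Casp1, 1.53 (1.12 to 2.09) for Casp4 and 1.34 (1.02 to 1.76) for Nlrx1. Nod1 went the other way, at 0.653 (0.471 to 0.906). For Pycard the quotient was 1.28 (0.906 to 1.81). Gsdmd and Ripk2 were lower in the basal-labelled pair and higher in the luminal-labelled pair, each beyond counting error, a pattern that 5.21% of all genes had. It was also found in 5 of the 10 basal markers, 4 of the 12 fibroblast and endothelial markers and 0 of the 10 luminal keratin and epithelial markers. The difference of the responses between the labels was not tested, since the spread between cultures is not known.

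Windows before the start of the genes that were higher in the luminal-labelled baicalin library are shown because Nod2, Casp1 and Casp4 moved in the same direction there. The 250 bases before the RefSeq start of each gene on GRCm38.p6 were searched on both strands for 5 short motifs, and capitals mark matches to GGNNNTTCC, the last letters of an NF-κB site. Nod2 at chr8:88647097-88647346, Casp1 at chr9:5298267-5298516 and Casp4 at chr9:5308599-5308848 all lie on the plus strand.
Nod2: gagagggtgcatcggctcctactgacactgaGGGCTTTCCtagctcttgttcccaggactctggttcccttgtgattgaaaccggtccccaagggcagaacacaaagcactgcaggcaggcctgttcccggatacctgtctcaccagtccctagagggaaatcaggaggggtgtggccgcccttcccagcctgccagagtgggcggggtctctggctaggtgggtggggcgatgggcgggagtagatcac
Casp1: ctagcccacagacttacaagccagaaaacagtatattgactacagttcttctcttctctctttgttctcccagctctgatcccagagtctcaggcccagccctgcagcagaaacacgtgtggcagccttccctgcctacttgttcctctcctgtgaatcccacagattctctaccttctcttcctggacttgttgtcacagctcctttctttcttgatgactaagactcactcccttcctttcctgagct
Casp4: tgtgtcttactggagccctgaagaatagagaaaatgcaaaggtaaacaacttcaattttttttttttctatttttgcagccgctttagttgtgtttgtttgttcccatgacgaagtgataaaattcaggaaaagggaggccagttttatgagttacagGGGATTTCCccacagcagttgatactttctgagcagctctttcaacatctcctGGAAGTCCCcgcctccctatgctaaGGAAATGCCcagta

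Casp4 held 3 such matches, which began 92, 39 and 14 bases before the RefSeq start, Nod2 held 1 and Casp1 held 0. The RefSeq starts of Casp4 and Nod2 lay 21 and 32 bases inside the gene spans given above. The Casp4 match at 14 thus lies within that span. Of 32851 windows of this length in the RefSeq table, 15.7% held at least 1 match. The letters were set after the sequences had been looked at, when a narrower form had found nothing, so the count is a description only. Matches to GAAANNGAA (an interferon-stimulated response element core), TGANTCA (an AP-1 site) and TGACNNNGC (an antioxidant response element core) were found in 0 of the 7 members with a window, while 7.13%, 6.75% and 10.2% of all windows held them. TTCNNNGAA (a gamma-activated site of interferon signalling) was found in Nlrx1 alone, against 7.02% of all windows. Nlrx1 and Nlrp3 held 2 matches each to GGNNNTTCC. No window was in the table for Ripk2 and Gsdmd.

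The luminal-labelled libraries were compared next with the basal-labelled ones of the same treatment. With DMSO, Pycard and Casp1 were higher past the threshold in the luminal-labelled library (2 of 9, against 4.71% of all genes) and Ripk2 was lower (1 of 9, against 3.86%). By the counting interval 3 of 9 were higher, against 30.5% of all genes, and 3 of 9 lower, against 30.2%. Pycard had 1.34 FPKM in the basal-labelled and 4.95 FPKM in the luminal-labelled library, a ratio of 3.70 (2.96 to 4.66). For Casp1 the ratio was 2.22 (1.96 to 2.52). Nod1 was higher by a ratio of 1.61 (1.26 to 2.07). Ripk2 was lower, with a ratio of 0.329 (0.292 to 0.370), as were Nod2 at 0.571 (0.444 to 0.731) and Gsdmd at 0.502 (0.345 to 0.722).

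With baicalin on both sides, Pycard and Casp1 were again higher past the threshold in the luminal-labelled library (2 of 9, against 5.24% of all genes), and no member was lower past it (2.99% of all genes). By the counting interval 6 of 9 were higher, against 25.8% of all genes, and 1 of 9 lower, against 33.7%. The ratios were 4.73 (3.68 to 6.15) for Pycard and 4.04 (3.59 to 4.56) for Casp1. Nod2 and Gsdmd, which were lower in the luminal-labelled library with DMSO, were higher there with baicalin, with ratios of 1.87 (1.55 to 2.26) and 2.49 (1.82 to 3.46). Casp4 and Nlrx1 were higher by ratios of 1.32 (1.11 to 1.59) and 1.27 (1.06 to 1.53). Ripk2 was still lower, at 0.783 (0.699 to 0.878). These 2 comparisons share their libraries with the comparisons of baicalin and DMSO above, so they add no independent measurement.

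**Figure D3:**
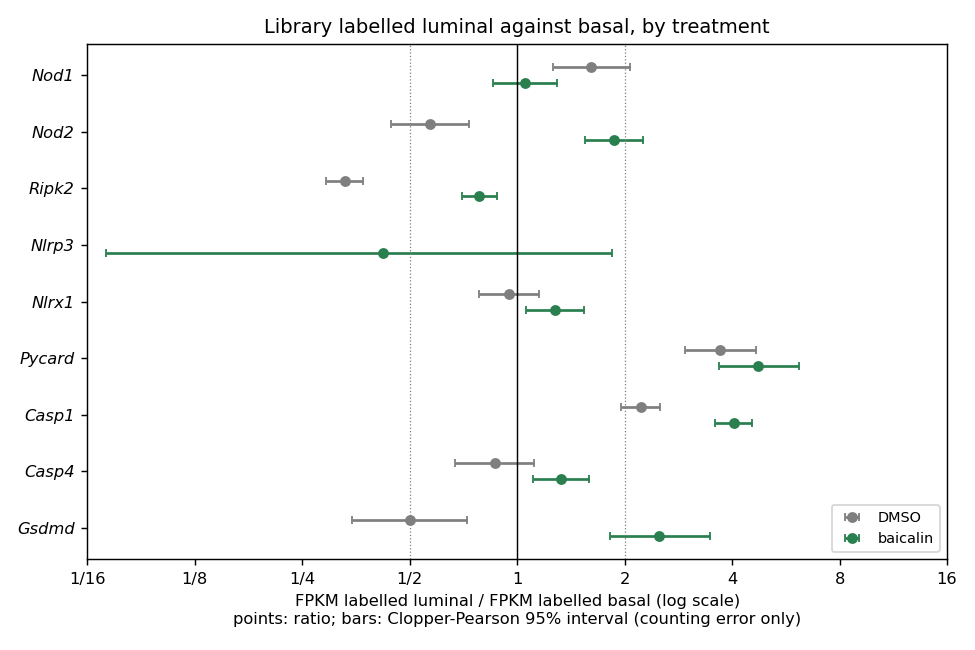
Ratio of FPKM in the luminal-labelled to the basal-labelled library (log axis) with DMSO and with baicalin, with Clopper-Pearson 95% intervals that cover counting error only and dotted lines at 2-fold either way. Pycard and Casp1 lie above 2 under both treatments, while Nod2 and Gsdmd lie below 1 with DMSO and above 1 with baicalin. No DMSO value is drawn for Nlrp3, which had 1 fragment in each library.

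Of 32 partners of the NOD receptors in signalling, all above 0 in every library, 3 were higher past the threshold with baicalin in the luminal-labelled pair and 0 lower, against the 2.37% and 1.59% of all genes given above. Tnfaip3, which encodes a ubiquitin-editing inhibitor of NF-κB signalling and is itself induced by NF-κB, went from 5.20 to 16.3 FPKM, a ratio of 3.13 (2.88 to 3.40). Nfkbia, an inhibitor of NF-κB that is likewise induced by it, had 51.6 and 114 FPKM, a ratio of 2.20 (2.08 to 2.33). Ripk3, a kinase of necroptosis, had 4.24 and 12.2 FPKM, a ratio of 2.88 (2.44 to 3.41).

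In the basal-labelled pair 0 of the 32 partners passed the threshold, against 2.15% of all genes upwards and 3.33% downwards. Tnfaip3 had 24.9 and 21.4 FPKM there and Nfkbia 150 and 126 FPKM, ratios of 0.859 (0.818 to 0.901) and 0.841 (0.806 to 0.877). Both were therefore several-fold higher in the basal-labelled than in the luminal-labelled control, and closer to each other with baicalin. Birc3, an inhibitor of apoptosis and ubiquitin ligase for the Ripk2 protein, also lay higher in the basal-labelled control, 8.91 and 7.18 FPKM in the basal-labelled pair and 3.96 and 8.11 FPKM in the luminal-labelled pair. The median log2 change of the 32 partners was 0.08 in the basal-labelled and 0.03 in the luminal-labelled pair.

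Of 6 transporters that carry peptidoglycan fragments or related peptides, 1 was lower past the threshold with baicalin in the luminal-labelled pair, against 1.59% of all genes. This was Slc15a1, which went from 6.04 to 2.38 FPKM, a ratio of 0.394 (0.337 to 0.459). In the basal-labelled pair it had 1.71 and 1.46 FPKM. No other member of this list passed the threshold in either pair. Slc46a3 had a similar ratio in the luminal-labelled pair, 0.388, from 2.80 to 1.08 FPKM, with a log2 change of -0.87. By the counting interval 3 of the 6 were lower in that pair, against 28.7% of all genes, and 2 higher, against 22.9%.

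Other sensors of the family were mostly silent. Of 28 further NLR and inflammasome sensors, 12 were at 0 in all 4 libraries, among them Nlrc4, Nlrp1a and Nlrp12, and 10 were above 0 in every library. Zbp1, a sensor of Z-form nucleic acid that interferon induces, had 11.2 FPKM in the basal-labelled DMSO library and 1.79 FPKM under baicalin, a ratio of 0.160 (0.131 to 0.193). In the luminal-labelled pair it had 1.43 and 2.22 FPKM, a ratio of 1.55 (1.20 to 2.01). Nlrc5, a regulator of MHC class I genes, had 1.55 and 0.424 FPKM in the basal-labelled pair and 0.949 and 1.21 FPKM in the luminal-labelled pair. Aim2, the sensor of cytosolic DNA, reached at most 0.280 FPKM in any of the 4 libraries.

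Of 24 regulators of the inflammasome, 23 were above 0 in every library. Of these 23, 2 (P2rx7 and Txnip) were higher past the threshold with baicalin in the basal-labelled pair, against 2.15% of all genes. Trim30a alone was lower past it (1 of 23, against 3.33% of all genes). P2rx7 encodes the ATP-gated channel whose opening activates NLRP3, and it went from 8.22 to 18.8 FPKM, a ratio of 2.29 (2.12 to 2.47). In the luminal-labelled pair it had 6.87 and 4.51 FPKM, a ratio of 0.656 (0.588 to 0.732). Txnip, which encodes a thioredoxin-binding protein also reported to bind NLRP3, went from 13.2 to 35.8 FPKM in the basal-labelled pair and from 242 to 138 FPKM in the luminal-labelled pair. Trim30a, an interferon-induced inhibitor of NLRP3 signalling, had 5.06 and 0.732 FPKM in the basal-labelled pair. Nek7, the kinase that NLRP3 needs to assemble, was abundant at 19.6 to 26.2 FPKM in all 4 libraries, although Nlrp3 itself had at most 7 fragments.

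The cytokines that the protease of Casp1 matures differed in level. Il1b was close to absent, with 4 and 1 fragments in the basal-labelled DMSO and baicalin libraries and 1 and 5 fragments in the luminal-labelled ones. Il18 had 2.49 and 1.77 FPKM in the basal-labelled pair, a ratio of 0.710 (0.452 to 1.11), and 1.95 and 4.56 FPKM in the luminal-labelled pair, a ratio of 2.33 (1.59 to 3.47). In the luminal-labelled pair Il18 was thus higher beside Casp1 and Gsdmd.

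The list of 21 caspase outputs and other genes of lytic death also held the lipopolysaccharide receptor genes Tlr4 and Cd14. Of the 21, 17 were above 0 in every library. Of these 17, 14 were lower with baicalin in the basal-labelled pair, with a median log2 change of -0.33, and 12 were higher in the luminal-labelled pair, with a median of 0.26. Of all genes, 50.9% were higher in the basal-labelled pair and 45.6% in the luminal-labelled pair. Il1a and Il1rn, which encode an interleukin released from dying cells and the antagonist of its receptor, passed the threshold in both pairs. Il1a had 39.3 and 13.5 FPKM in the basal-labelled pair and 1.81 and 18.4 FPKM in the luminal-labelled pair, ratios of 0.344 (0.312 to 0.380) and 10.2 (7.97 to 13.3). Il1rn had 8.76 and 2.26 FPKM, then 2.08 and 6.99 FPKM. Il33, another member of that family, was lower past the threshold in the luminal-labelled pair, from 35.2 to 3.36 FPKM. The initiator caspase gene Casp8 and the necroptosis effector gene Mlkl were each lower in the basal-labelled pair, at ratios of 0.763 and 0.649, and higher in the luminal-labelled pair, at 1.21 and 1.24. In all, 7 of the 17 genes, Tlr4 among them, were lower in the first pair and higher in the second beyond counting error, against 5.21% of all genes.

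Interferon-inducible genes were read beside the members because Casp4, Gbp2 and related genes are known targets of interferon. Of 23 interferon-inducible GTPases and interferon signalling genes, 21 were lower with baicalin in the basal-labelled pair and 11 of them past the threshold, with a median log2 change of -0.81. Of all genes in that pair, 50.9% were higher and 3.33% lower past the threshold. Gbp3, another GTPase of this family, had 20.7 and 1.13 FPKM, Iigp1 had 7.47 and 0.205 FPKM, and the interferon regulatory factor gene Irf7 had 15.3 and 2.30 FPKM. Gbp2, a GTPase that helps caspase-11 reach bacterial lipopolysaccharide, had 52.3 and 12.2 FPKM there. Of the members, Casp4 (1.90 and 2.87 FPKM) and Nod1 were higher in the same pair, and Ripk2, Gsdmd and Pycard were lower. A part of interferon in these changes was not tested. In the luminal-labelled pair 0 of the 23 passed the threshold, against 2.37% of all genes upwards and 1.59% downwards. The median there was -0.01. By the counting interval 9 of the 23 were lower in that pair, against 28.7% of all genes, and 4 higher, against 22.9%. Irf7 and Iigp1 were lower there too, at ratios of 0.391 and 0.245, while Gbp2 was higher, at 1.33. With 1 FPKM added, the log2 changes of Irf7 and Iigp1 were -0.82 and -0.57.

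**Figure D4:**
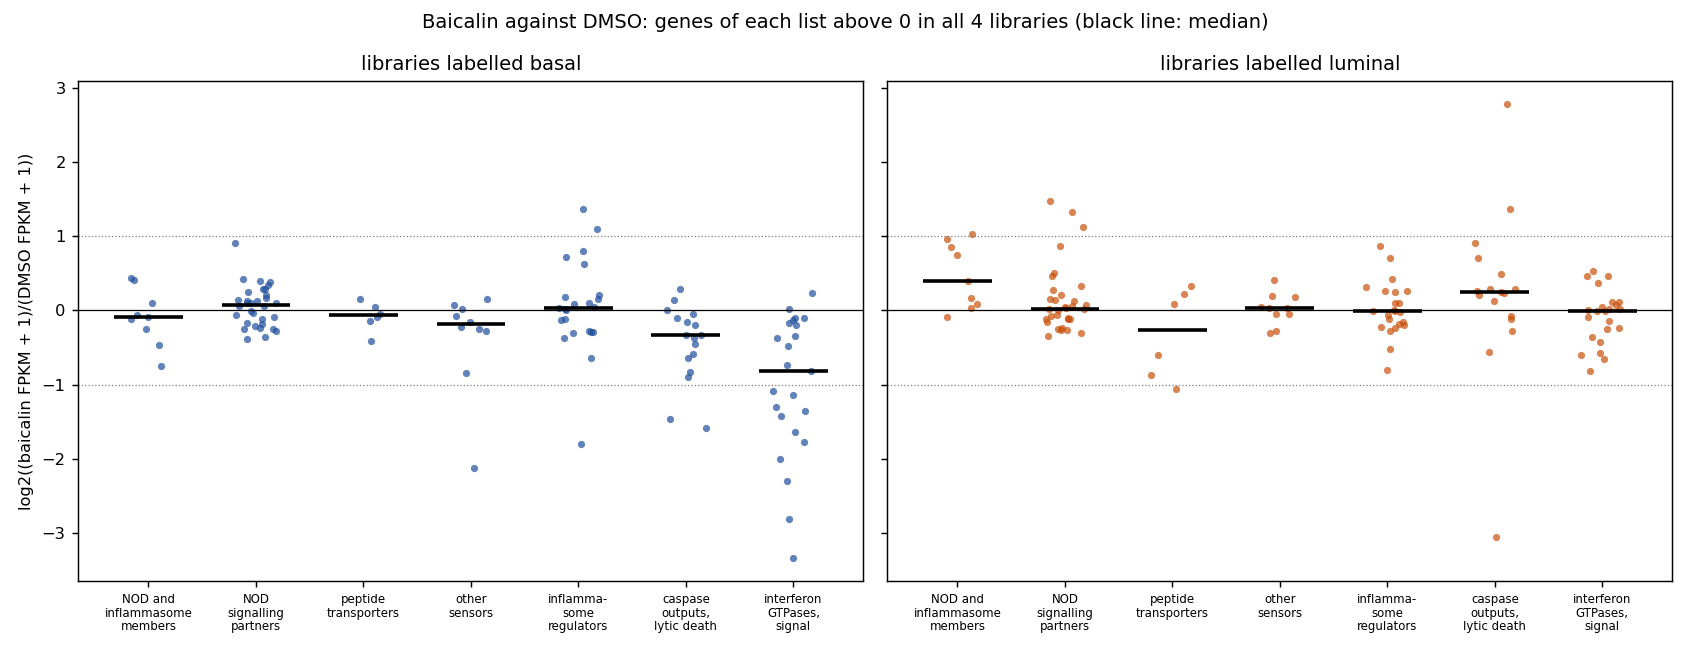
Log2((baicalin FPKM + 1)/(DMSO FPKM + 1)) for the genes of 7 lists that were above 0 in all 4 libraries, 1 point per gene (spread sideways at random), with the list's median as a black line and dotted lines at the threshold of 1. The 9 members lie around 0 in the basal-labelled pair and mostly above 0 in the luminal-labelled pair, and the interferon list has a median of -0.81 in the basal-labelled pair.

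The 9 genes were finally compared by pattern, as the Euclidean distance between their 4 values of log2(FPKM + 1) centred on the mean of each gene. The near-silent Nlrp3 and Nlrx1 were the nearest pair, at 0.22. Nod2 and Gsdmd were the next nearest pair, at 0.30, and Ripk2 and Casp1 the farthest apart, at 2.46. Among 11739 other protein-coding genes with at least 1 FPKM in a library, the gene nearest to Ripk2 was Hsph1 (distance 0.05), to Casp4 Dnajb9 (0.06), to Pycard P3h1 (0.07), to Casp1 Axin2 (0.10), to Gsdmd Dsc2 (0.10) and to Nod2 Tmprss11e (0.11). With only 4 libraries such nearness is a description of the values. For Nod1, 38 genes lay within 0.1, and for Nlrx1 57 genes did.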

How the data were processed

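RNA of 4 libraries, 1 per condition, was enriched with oligo (dT) beads and made into stranded libraries by the authors. Per the methods of the paper, HISAT2 aligned the reads to GRCm38 (Ensembl release 94) and featureCounts gave the deposited FPKM; the submitters' processing notes name Bowtie 0.12.2 and the builds mm8 and GRCm38 without a role. The strand setting is not given in the sources used here, so antisense transcripts overlapping Nlrx1 and Pycard (at most 0.333 FPKM) cannot be separated. Exon lengths and positions came from GENCODE release M21 (GRCm38), which held 54409 of the 54446 genes. FPKM times exon length fell on steps of 1 fragment, and between 98.8% and 99.0% of low genes lay within 0.1 of a whole number of fragments. Ratios of fragments were given exact Clopper-Pearson intervals. The pseudocount was 1 FPKM, the filter an FPKM above 0 in all 4 libraries and the threshold 1 on the log2 scale. The study's t-test needs replicates and was not run. No near-identical copy of a member was found (95% identity over 200 bases), apart from those antisense genes. Genes named outside the 9 members were taken from the 3 with the largest change in each list, Il1b, Il18, Ptprc and the nearest genes by pattern, and not all of these are printed. The others (Birc3, P2rx7, Nek7, Aim2, Nlrc4, Nlrp1a, Nlrp12, Gbp2, Casp8, Mlkl, Tlr4, Cd14, Lyz2, Csf1r, Mpeg1, Fcer1g, Itgax, Cd3g, Ms4a1, Nkg7, Esr1, Pgr) were chosen after their values were seen. Members and lists were chosen with earlier results of these data known. Some genes of the lists are not reported here by name. Recovery of depth and calls was tested on simulated data. Intervals were computed with scipy 1.17.1 under Python 3.11.15, tables were handled with pandas 2.3.3 and numpy 2.4.6, and plots were drawn with matplotlib 3.10.9.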

Additional observations from a re-analysis of the deposited data

Results flagged for a closer look

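Ripk2 and Gsdmd went in opposite directions with baicalin in the 2 pairs of libraries, each beyond counting error. The same pattern, lower in the basal-labelled and higher in the luminal-labelled pair, was found in 5.21% of all genes. Of the 10 basal markers 5 had it, and of the 12 fibroblast and endothelial markers 4. For Ripk2 the FPKM ratio was 0.574 in the basal-labelled pair and 1.37 in the luminal-labelled pair, a quotient of 2.38. For Gsdmd the ratios were 0.583 and 2.89, a quotient of 4.96. The difference between the labels was not tested, since each condition has 1 library.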

How the results depend on the processing

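The number of members past the threshold depended on the pseudocount and the threshold. In the luminal-labelled pair, 1 member passed it as reported, 3 with 0.1 FPKM added or after scaling to TPM (1 TPM added), 4 without a pseudocount and 4 at a threshold of 1.5-fold. In the basal-labelled pair, 0 passed as reported, 1 (Nlrp3, on 1 and 7 fragments) without a pseudocount and 1 (Ripk2, lower) at 1.5-fold. Between labels, the count with baicalin was 2 as reported, 3 with 0.1 FPKM added or as TPM, 4 without a pseudocount and 4 at 1.5-fold, and with DMSO it was 3 under all 9 alternatives. The share of all genes past the threshold moved too, from 5.48% to 13.6%, 21.1%, 9.55% and 15% in the basal-labelled pair and from 3.95% to 11%, 17.4%, 7.29% and 12.3% in the luminal-labelled pair (0.1 FPKM added, no pseudocount, TPM and 1.5-fold), and between labels with baicalin from 8.23% to 18.9%, 26.1%, 14.2% and 20.1%. With DMSO the share between labels went from 8.56% to 19.6%, 27%, 14.5% and 21.4% in the same order, while the member count stayed at 3 of 9. The other alternatives, no filter, a minimum of 1 FPKM in a library, centring, protein-coding genes and at least 10 fragments, changed no member count. No member's direction changed but that of Nlrp3 between labels with DMSO, on centring and as TPM, where it had 1 fragment in each library. No paired analysis was possible because the labels carry no replicate numbers, with 1 library per condition, and no library was left out. A fit of label and treatment without their interaction, which would leave 1 residual degree of freedom, was not run. Depth limits Nlrp3 and Il1b, which had at most 7 fragments in any library.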

Other observations

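Some genes linked to inflammasomes or to myeloid cells were higher in the luminal-labelled baicalin library than in its control. Ptprc had 2 fragments in that baicalin library, and a part of immune cells was not tested. S100a8 and S100a9, which encode the subunits of calprotectin, had 0.521 and 0.396 FPKM with DMSO and 5.02 and 3.99 FPKM with baicalin, ratios of 9.64 (4.45 to 24.8) and 10.1 (3.66 to 38.7). Serpinb1a, a serpin that inhibits neutrophil serine proteases, had 0.381 and 2.61 FPKM, a ratio of 6.84 (4.10 to 12.1). In the basal-labelled pair S100a8 had 1.52 and 1.35 FPKM, and S100a9 and Serpinb1a had 1 and 2 fragments with DMSO and 0 with baicalin. Cd68, a lysosomal glycoprotein gene often used as a macrophage marker, was higher with baicalin in both pairs, from 7.49 to 51.5 FPKM in the basal-labelled and from 4.44 to 13.7 FPKM in the luminal-labelled pair, ratios of 6.87 (5.89 to 8.05) and 3.09 (2.48 to 3.87). Of other genes of macrophages, Lyz2 was lower in the basal-labelled pair, from 8.84 to 2.17 FPKM. Csf1r went from 0.340 to 0.0908 FPKM (39 and 11 fragments) and Mpeg1 from 0.163 to 0.0455 FPKM (14 and 4 fragments). Fcer1g and Itgax, of the same marker list, were higher there, on 2 and 7 and on 1 and 4 fragments. Of the 8 immune markers above 0 in every library, 2 (Cd68 and Fcer1g) were higher in the basal-labelled pair and 6 lower. In the luminal-labelled pair 7 of the 8 were higher with baicalin and 1 was lower. Lyz2 went from 0.903 to 2.61 FPKM there (23 and 71 fragments). Csf1r had 0.0317 and 0.0496 FPKM and Mpeg1 0.0834 and 0.123 FPKM, on few fragments.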
